A study of Macaca mulatta with 48 samples.

Results

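Single-cell transcriptomes of the testis were compared between 2 adult (6 years) and 2 prepubertal (1 year) male rhesus monkeys, to ask which cells and genes of the testis differ between an organ before puberty and one that makes sperm. Each animal gave 1 testis in the non-breeding (NB) season, in August, and the remaining testis in the breeding (B) season, in December, so every B sample came from an animal with a single testis. Testes were digested with collagenase into cell suspensions and profiled by droplet sequencing, which counts RNA molecules by unique molecular identifiers (UMIs). The 8 libraries of these 4 animals held 68262 barcodes. Of these, 67955 had 300 genes or more, no more than 30000 UMIs and no more than 3% of UMIs from mitochondrial genes, out of 112150 such cells in all 12 libraries of the series. These 67955 cells were clustered together. The 5340 predicted doublets were then left out of the cell classes. Of the 62615 cells that remained, 52098 fell in clusters that could be named from marker genes. Both season libraries of an animal were summed, and the animal was the replicate (n = 2 adult, n = 2 prepubertal). The labels list 8 samples for each age and season, and none of them names a matrix, so the age, season and animal of each library were taken from a sheet of libraries supplied with the study. That sheet calls the youngest animals pubertal. The p-values measure only the spread between these animal sums, which also holds differences of season, testis and library. Adult animal 2 had 10298 passing cells from its NB and 117 from its B library, against 9239 and 9383 in adult animal 1.

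In a prepubertal primate testis the seminiferous cords hold Sertoli cells and spermatogonia. At puberty the pituitary hormones LH and FSH and testosterone from Leydig cells bring Sertoli cells to maturity, the blood-testis barrier closes between them, and spermatogonia enter meiosis. Spermatocytes pair and recombine their chromosomes and silence the X chromosome, and the haploid spermatids that follow build the acrosome and the tail and replace histones with protamines. Sertoli cells nurse this process, peritubular cells surround the tubule, and stromal and Leydig cells fill the space between tubules.

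Of the 8 libraries, 7 were alike in size, with 7212 to 11355 barcodes and medians of 2635 to 3268 UMIs per passing cell. The B library of adult animal 2 was far smaller, with 117 passing cells (35.1% of its barcodes), and 46 of these carried a barcode also found in the B library of an aged animal (39.3%). Pairs among the other 11 libraries shared at most 0.465% of the cells of the smaller one. Leaving that small library out gave 6033 genes higher and 4743 lower in adult testis, against 6029 and 4734 with it. A second library stood apart by its content. The NB library of prepubertal animal 1 held 284 early spermatocytes, 123 late spermatocytes, 24 round and 17 elongated spermatids, whereas the other 3 prepubertal libraries held 8 early spermatocytes together and no later germ cell. Of its 5134 Sertoli cells, 595 (11.6%) fell in clusters made mostly of adult cells, against 0 in the other prepubertal libraries. Its level of CST9L, a gene of adult Sertoli cells, was 471 CPM (UMIs of a gene scaled to the same total in every library) and that of the protamine gene PRM1 528 CPM, whereas the other 3 prepubertal libraries had 2.03 to 5.40 CPM of CST9L and 0.0953 to 0.208 CPM of PRM1. Markers of erythroid cells summed to 45.8 to 438 CPM in prepubertal and 12.1 to 62.3 CPM in adult libraries. The source of the germ cells in that library was not tested. Named genes whose calls it changed are listed, and medians without it are given for some of the lists.

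Sertoli cells made up most of the prepubertal testis, and spermatocytes and spermatids took a larger share of the adult testis. Sertoli cells were 23.0% and 15.6% of the cells in adult animals 1 and 2, and 57.8% and 53.1% in prepubertal animals 1 and 2 (mean difference -36.1 percentage points). Interstitial stromal cells were 4.97% and 7.67% in adult and 16.9% and 15.2% in prepubertal animals. Both classes took a smaller share in each adult than in each prepubertal animal. Round spermatids were 12.5% and 24% of adult cells and 0.147% and 0 of prepubertal cells. Elongated spermatids were 22.5% and 15.7% in adult and 0.104% and 0 in prepubertal animals. Late spermatocytes were 10.5% in both adult animals and 0.751% and 0 in prepubertal animals. All the late spermatocytes and spermatids counted in prepubertal animals came from the NB library of animal 1. Spermatogonia made up 5.01% and 5.25% of adult and 2.49% and 1.52% of prepubertal cells, but the B libraries alone gave the opposite direction (-1.89 percentage points). There adult animal 2 had 117 cells and 0 spermatogonia. Adult animal 1 had 1.73% in its B library, against 3.40% and 2.12% in the prepubertal B libraries. With 2 animals a side the smallest two-sided p an exact permutation test can give is 0.333, which these classes reached, so the shares are descriptions and not calls. The shares also differed between the season libraries of adult animal 1. It had 46.1% Sertoli cells and 1.69% elongated spermatids in its NB library, and 0.265% and 43.0% in its B library. The NB library of adult animal 2 had 15.7% of each. Season, testis and library cannot be told apart here. The Sertoli shares of the NB libraries overlapped, with 46.1% in adult animal 1 and 44.9% in prepubertal animal 2. In the NB libraries alone the mean Sertoli share was lower in adults by 18.3 percentage points. In the B libraries alone, where adult animal 2 had 117 cells, the mean Sertoli share was lower by 61.6. At a coarser clustering (Leiden resolution of 1) it was lower by 10.6, but there a cluster of 7917 mostly prepubertal cells was left unnamed, and a cluster of 3335 prepubertal cells whose highest marker score was for Sertoli cells was called peritubular. A share is relative, so a rise of one class lowers the others. Unnamed cells were 8.01% and 11.2% in adult and 16% and 28% in prepubertal animals.

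**Figure D1:**
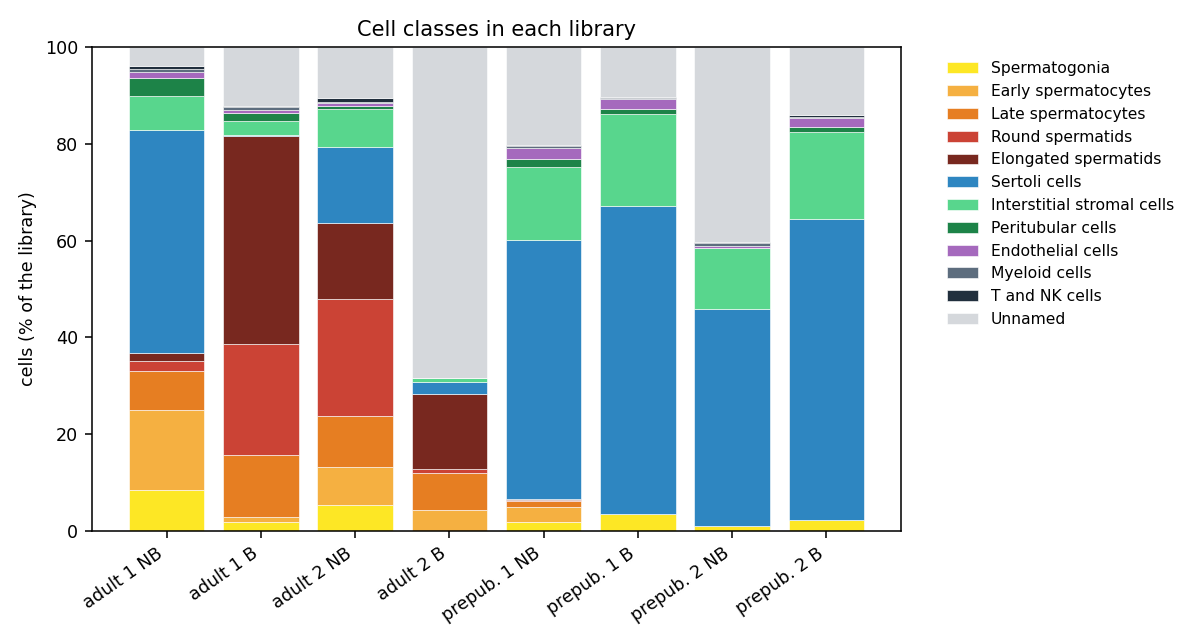
Stacked bars of the share of analysed cells in each named class (percent of the library, vertical axis) for the NB and B library of each adult and prepubertal (prepub.) animal. Sertoli cells fill the largest part of every prepubertal bar, and spermatocytes and spermatids fill most of the B library of adult animal 1 and of the NB library of adult animal 2, whereas the NB library of adult animal 1 has 46.1% Sertoli cells.

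Over the whole testis, 20815 genes were tested between the 4 animal sums and 6029 were higher in adults (29% of genes tested) and 4734 lower (22.7%) at an adjusted p under 0.05 (edgeR). The median log2 change of all genes was 0.01. Levels below are CPM scaled by trimmed mean of M values (TMM), first adult animals 1 and 2 and then prepubertal animals 1 and 2, and changes are log2 adult minus prepubertal with their standard error. Class levels and marker sums are CPM without TMM scaling. In such sums more cells of a type and more RNA per cell cannot be told apart. The count rested most on adult animal 2, and without it 2139 genes were higher and 901 lower. With NB libraries only no gene passed (edgeR, 6311 genes at an unadjusted p under 0.05), and with B libraries only 6225 were higher and 6378 lower, where the small library of 117 cells is all of adult animal 2. Without the NB library of prepubertal animal 1 the counts were 6801 and 5321. Of the named genes, CLDN11, CST9L, FATE1, HMGB4, PDHA2, PRM1, TAF7L, TNP2 and ZPBP then passed in addition and MCM3 no longer passed. Of the 77 genes named here that passed over the whole testis, 34 still passed without adult animal 2, 61 without adult animal 1, 73 without prepubertal animal 1, 73 without prepubertal animal 2 and none with NB libraries only (edgeR).

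The 10 genes with the largest rise included several of sperm structures. TEKT4, a tektin of the sperm tail, had 87.5 and 168 CPM in adult and 1.14 and 0 CPM in prepubertal animals (log2 7.81 ± 1.75, adjusted p = 0.0158). CCIN, which encodes the sperm-head protein calicin, had 91 and 151 against 1.15 and 0.0985 CPM (7.60 ± 1.19, adjusted p = 0.0068). The other 8 were C11H12orf54, MMP27, ODF3L1, CCDC54, LITAFD, TEX44, ZNF475 and SMIM23, with changes of 7.57 to 8.01. Among the 10 with the largest fall, PCDH11X, an X-linked protocadherin, had 9.0 and 6.31 CPM in adult and 468 and 815 CPM in prepubertal animals (-6.39 ± 0.50, adjusted p = 0.00456). DSP, which encodes the desmosome protein desmoplakin, had 7.69 and 0.992 against 106 and 124 CPM (-4.72 ± 0.96, adjusted p = 0.0122). The other 8 were FYB2, PCP4, ZMAT4, TMOD1, CPXM1, CREB5, ANXA3 and SLC16A11, with changes of -6.59 to -4.86. These 20 were chosen among genes whose adult and prepubertal animals did not overlap, which was so for 83.9% of all genes tested. Without the NB library of prepubertal animal 1 the fitted change of TEKT4 was 15.8. Prepubertal animal 2 had 0 UMIs of TEKT4, so the size of this fitted value is uncertain.

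**Figure D2:**
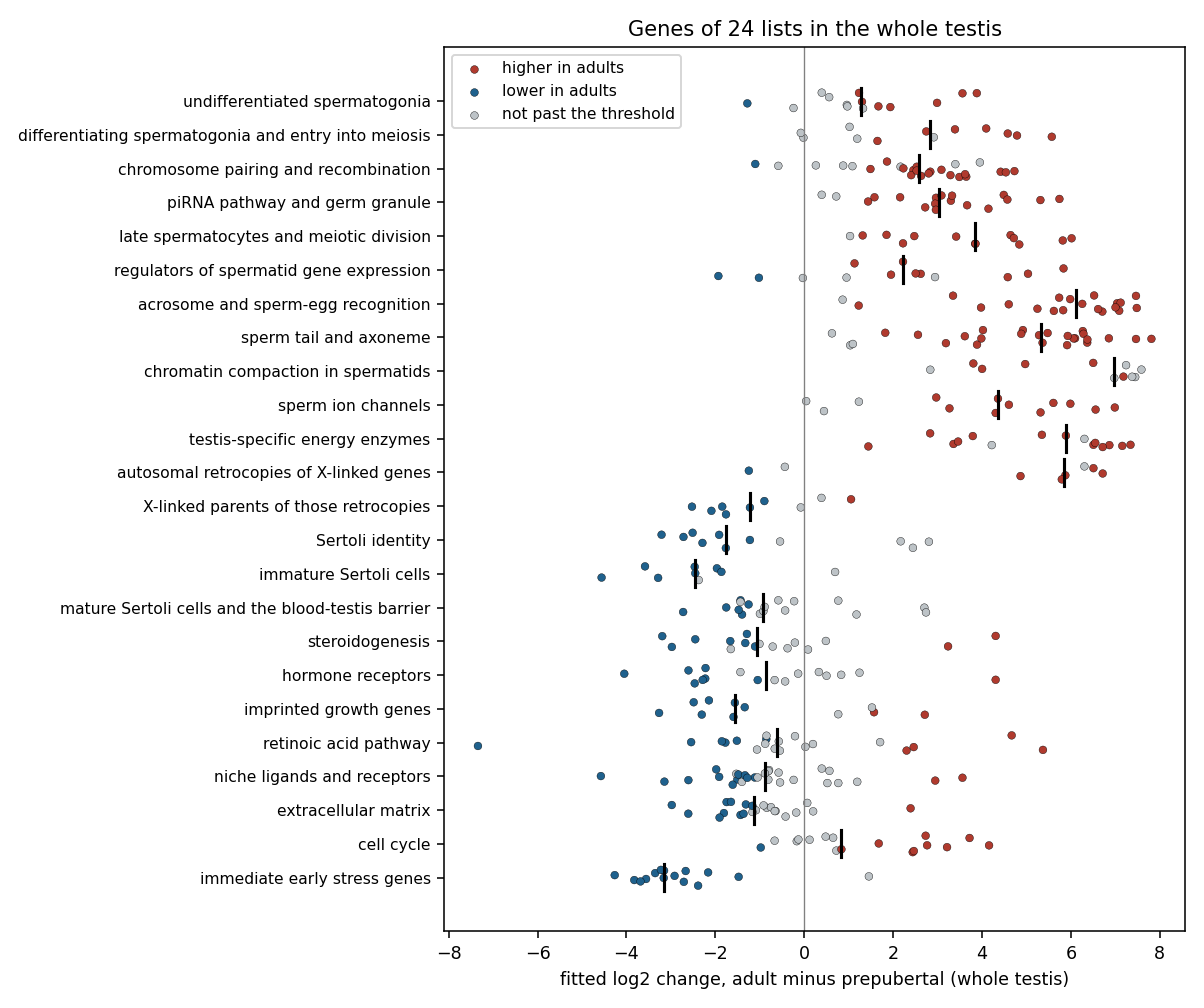
Fitted log2 change, adult minus prepubertal, of each tested gene in 24 gene lists over the whole testis (horizontal axis), 1 point per gene, colored by whether it passed an adjusted p of 0.05 and in which direction, with a black bar at the median of each list. Lists of spermatocytes, spermatids and sperm parts have medians from 2.22 to 6.98, and lists of Sertoli cells, hormones, niche signals, matrix and immediate early genes have medians below 0.

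Lists of germ-cell genes were described in the order of spermatogenesis. Of all genes tested over the whole testis 29% were higher and 22.7% lower, which is the background of each whole-testis list count. Of 14 tested genes of undifferentiated spermatogonia, 7 were higher in adult testis and 1 lower, with a median change of 1.27. UTF1, a chromatin factor of the most immature spermatogonia, was the lower one, with 45.4 and 35.7 CPM in adult and 105 and 91.6 CPM in prepubertal animals (-1.28 ± 0.28, adjusted p = 0.0153). GFRA1, the receptor for the niche factor GDNF, had 26.7 and 40.1 against 2.39 and 3.26 CPM (3.56 ± 0.38, adjusted p = 0.00456). ZBTB16, a repressor that maintains spermatogonia, had 47.2 and 68 against 6.51 and 8.01 CPM (2.99 ± 0.33, adjusted p = 0.00456). Levels by cell class, in CPM without TMM scaling, showed where these transcripts were. UTF1 stood at 419 and 475 CPM in adult and 448 and 532 CPM in prepubertal spermatogonia, with 107 and 87.6 CPM in prepubertal Sertoli cells. ZBTB16 was at 58 and 73.6 CPM in adult and 57 and 58.1 CPM in prepubertal spermatogonia, and at 153 and 128 CPM in adult round spermatids. GFRA1 was at 64.7 and 66.3 CPM in adult round spermatids and at 31.1 and 28.1 CPM in adult spermatogonia. The adult rise of these 2 markers over the whole testis therefore included transcripts counted in spermatids.

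Of 12 genes of differentiating spermatogonia and of entry into meiosis, 7 were higher and none lower (median 2.83; edgeR). Leaving out the NB library of prepubertal animal 1 gave 9 higher (median 4.37). STRA8, the retinoic acid target that starts meiosis, had 1.76 and 2.16 CPM in adult and 0.299 and 0.0739 CPM in prepubertal animals (3.39 ± 0.74, adjusted p = 0.0146). MEIOC, which stabilizes the meiotic program, had 46.7 and 52.4 against 5.26 and 0.554 CPM (4.09 ± 1.01, adjusted p = 0.0203). SOHLH2, a transcription factor of spermatogonial differentiation, had 109 and 218 against 7.04 and 4.79 CPM (4.79 ± 0.49, adjusted p = 0.00456). Its highest class levels were again in adult round spermatids, at 262 and 362 CPM, against 34.7 and 44 CPM in adult spermatogonia.

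Genes of chromosome pairing and recombination rose as a list, with 18 of 26 higher and 1 lower (median 2.58), and 23 and 1 without that library (median 3.95). SYCP3, an axial element of the synaptonemal complex, had 133 and 101 CPM in adult and 21.8 and 10.9 CPM in prepubertal animals (2.84 ± 0.43, adjusted p = 0.00643). HORMAD2, which marks unpaired axes, had 211 and 221 against 15.8 and 2.81 CPM (4.54 ± 0.85, adjusted p = 0.0102). PRDM9, which sets recombination hotspots, was low in every animal, at 1.38 and 2.29 against 0.394 and 0.037 CPM (3.09 ± 0.995, adjusted p = 0.0443). The lower member was HFM1, a helicase of crossover formation, with 62.4 and 52.5 CPM in adult and 94.7 and 152 CPM in prepubertal animals (-1.10 ± 0.34, adjusted p = 0.0387). SYCP3 was highest in adult early spermatocytes, at 426 and 448 CPM, and the 291 early spermatocytes of prepubertal animal 1 had 480.4 CPM.

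The piRNA pathway, which silences transposons in germ cells, had 16 of 18 genes higher and none lower (median 3.03, and 3.69 without that library). DDX4, the germ-cell helicase VASA, had 162 and 246 CPM in adult and 17.3 and 5.8 CPM in prepubertal animals (4.14 ± 0.63, adjusted p = 0.00635). GTSF1, which activates PIWI slicing, had 374 and 775 against 18.2 and 3.33 CPM (5.74 ± 0.98, adjusted p = 0.00809). PIWIL1, the PIWI protein of the pachytene pathway, had 47.3 and 66 against 4.18 and 0.591 CPM (4.57 ± 0.93, adjusted p = 0.0123). The member nearest to no change was TDRD7, with a log2 change of 0.39 ± 0.30. Late spermatocytes and the meiotic division followed the same direction, with 12 of 13 genes higher (median 3.84), and all 13 without the NB library of prepubertal animal 1 (median 4.63), where the change of CCNA1 was 9.86. CCNA1, the cyclin of the male meiotic division, had 134 and 223 against 5.34 and 0.185 CPM (6.02 ± 1.49, adjusted p = 0.0209), and its class level was 457 and 609 CPM in adult late spermatocytes against 9.55 and 32.5 CPM in adult early ones.

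Regulators of spermatid gene expression were more mixed, with 8 of 13 higher and 2 lower (median 2.22), against 29% and 22.7% of all genes tested. CREM, the cyclic-AMP-responsive factor that switches on spermatid genes, had 608 and 972 CPM in adult and 176 and 233 CPM in prepubertal animals (1.95 ± 0.39, adjusted p = 0.0116). By class it stood at 1704 and 1654 CPM in adult round spermatids, 1041 and 1124 CPM in late spermatocytes and 87.8 and 158 CPM in Sertoli cells, with 167 and 249.7 CPM in prepubertal Sertoli cells. FHL5, a CREM coactivator also called ACT, had 195 and 415 against 9.17 and 1.54 CPM (5.83 ± 1.01, adjusted p = 0.00837). BRDT, the testis bromodomain protein, had 237 and 355 against 15.9 and 2.2 CPM (5.03 ± 0.99, adjusted p = 0.0114). The lower members were TAF7, a subunit of the general factor TFIID (-1.02 ± 0.29), and CREB3L4 (-1.93 ± 0.36). TAF7L, the germ-cell copy of TAF7, did not pass over the whole testis, at 108 and 76.2 against 22.3 and 1.7 CPM (adjusted p = 0.0653). It passed without the NB library of prepubertal animal 1 (TAF7L 5.21, adjusted p = 2.23e-05, edgeR). The 2 genes are related, and sharing of reads between them was not tested.

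CREM binds the cyclic-AMP response element (CRE), an 8-base palindrome, and promoters of list genes were searched for it because CREM rose. The letters TGACGTCA, which read the same on both strands, were looked for from 250 bases before to 50 after the start of 14963 protein-coding genes tested (RefSeq, Mmul_10). They were present in 2.45% of all these promoters, in 2.51% of those of higher genes and in 2.46% of those of lower genes, so the element was about as frequent in every direction. In 7 lists together, those of late spermatocytes, spermatid regulators, acrosome, tail, chromatin compaction, ion channels and energy enzymes, 4 of 102 promoters held it (3.92%). In the list of immediate early genes it was in 3 of 15 (20%), namely BTG2, DUSP1 and JUND. The RFX site GTTGCCAT, searched on both strands, was in 1.12% of all promoters, 1.69% of those of higher genes and 0.697% of those of lower genes, and the MYB site AACNGTT in 2.91%, 3.38% and 2.61%. The sequences below are shown because they hold the CRE, in capitals, in genes of the piRNA pathway, of sperm-egg fusion and of the meiotic division that rose in adults, and in an immediate early and an imprinted gene that fell. Each is the 150 bases before the transcription start on the coding strand.
MOV10L1, chr10:1388367-1388516, minus strand: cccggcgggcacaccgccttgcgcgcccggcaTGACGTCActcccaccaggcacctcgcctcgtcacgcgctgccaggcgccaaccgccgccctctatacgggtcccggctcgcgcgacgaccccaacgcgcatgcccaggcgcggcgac
IZUMO1, chr19:48739665-48739814, minus strand: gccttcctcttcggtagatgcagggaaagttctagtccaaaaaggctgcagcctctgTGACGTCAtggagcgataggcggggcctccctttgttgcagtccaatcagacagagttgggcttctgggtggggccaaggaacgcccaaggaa
AURKA, chr10:91537005-91537154, minus strand: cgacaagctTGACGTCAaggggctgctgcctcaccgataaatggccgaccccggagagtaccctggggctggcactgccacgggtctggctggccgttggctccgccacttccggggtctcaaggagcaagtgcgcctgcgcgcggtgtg
DUSP1, chr6:170171765-170171914, minus strand: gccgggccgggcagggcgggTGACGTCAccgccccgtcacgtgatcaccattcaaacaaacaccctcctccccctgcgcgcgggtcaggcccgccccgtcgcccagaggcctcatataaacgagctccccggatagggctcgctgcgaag
PEG3, chr19:56523794-56523943, minus strand: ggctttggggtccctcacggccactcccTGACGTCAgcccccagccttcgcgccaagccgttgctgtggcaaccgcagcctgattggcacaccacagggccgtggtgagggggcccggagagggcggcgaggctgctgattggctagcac

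The element ended 110 bases before the start in MOV10L1, 85 in IZUMO1, 133 in AURKA, 122 in DUSP1 and 114 in PEG3. MOV10L1, the helicase that loads piRNA precursors, had 45.1 and 55.3 CPM in adult and 8.33 and 3.49 CPM in prepubertal animals (3.09 ± 0.49, adjusted p = 0.00682). IZUMO1, the sperm ligand of the egg receptor, had 13.7 and 34.4 against 0.734 and 0.246 CPM (5.62 ± 0.78, adjusted p = 0.00569). AURKA, a kinase of the spindle poles, had 85.3 and 99 against 8.65 and 4.18 CPM (3.84 ± 0.44, adjusted p = 0.00472). DUSP1, a phosphatase that ends MAP kinase signals, and PEG3, a paternally expressed zinc-finger gene, moved the other way, with changes of -3.82 ± 0.31 and -2.15 ± 0.35. A match of letters is a description of the window and says nothing of binding.

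Genes of the finished sperm were higher in almost every case. Of 20 acrosome genes 19 were higher (median 6.12), of 26 tail and axoneme genes 23 were higher (median 5.32), and of 13 sperm ion channel genes 10 were higher (median 4.36), none of them with a lower member (edgeR). ACRV1, an acrosomal vesicle protein, had 41.7 and 78.3 CPM in adult and 0.992 and 0.16 CPM in prepubertal animals (6.71 ± 0.96, adjusted p = 0.00585). SPAM1, the sperm hyaluronidase, had 71.2 and 127 against 1.1 and 0.0246 CPM (7.46 ± 1.47, adjusted p = 0.0113). ODF2, of the outer dense fibers, had 1210.4 and 1429 against 31 and 8.54 CPM (6.06 ± 0.76, adjusted p = 0.00506). In each of the 3 both adults lay above both prepubertal animals, and prepubertal animal 1 lay above animal 2. Adult and prepubertal animals were apart, in either direction, for 83.9% of all genes tested. Without the NB library of animal 1 the change of SPAM1 was 10.8, and the medians were 8.61 for the acrosome, 6.60 for the tail and 5.41 for the channel list. AKAP4, the main anchor protein of the fibrous sheath, had 347 and 303 against 7.31 and 3.36 CPM (5.93 ± 0.53, adjusted p = 0.00456). CATSPER1, a pore subunit of the sperm calcium channel, had 17.1 and 32.5 against 0.394 and 0 CPM (6.99 ± 1.39, adjusted p = 0.0116). Not every member of these lists was silent before puberty. ZPBP, a zona pellucida binding protein, had 315 and 396 CPM in adult and 168 and 222 CPM in prepubertal animals and did not pass (0.86 ± 0.32, adjusted p = 0.0669). SPAG16, of the central apparatus of the axoneme, had 388 and 500.3 against 264 and 313 CPM (0.62 ± 0.32, adjusted p = 0.145).

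In the list of chromatin compaction genes a single library decided the calls. All 11 tested genes had higher levels in each adult than in each prepubertal animal (median 6.98), but only 5 passed. The groups did not overlap, in either direction, for 83.9% of all genes tested. PRM1, protamine 1, had 30827 and 25979 CPM in adult and 295 and 0.185 CPM in prepubertal animals (7.59 ± 2.79, adjusted p = 0.0635). The prepubertal value of animal 1 came from its NB library, which had 528 CPM against 0.0953 CPM in its B library, without TMM scaling. TNP2, a transition protein, had 3657 and 3467 against 47.1 and 0.037 CPM (adjusted p = 0.0581), and HMGB4, a spermatid chromatin protein, 7148 and 9432 against 99.7 and 0.0493 CPM (adjusted p = 0.0654). Without that library all 11 passed, with a median of 12.3 and a change of 17.5 for PRM1. H1-7, the linker histone of elongating spermatids, passed with all libraries, at 729.6 and 1066 against 12.2 and 0.172 CPM (7.18 ± 1.89, adjusted p = 0.0244).

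Germ cells carry their own energy enzymes, and 13 of 15 such genes were higher with none lower (median 5.89), and all 15 without the NB library of prepubertal animal 1 (median 9.02), where the change of LDHC was 8.48. LDHC, the lactate dehydrogenase of the testis, had 1178 and 1683 CPM in adult and 66.6 and 3.7 CPM in prepubertal animals (5.35 ± 1.36, adjusted p = 0.0222). GAPDHS, the sperm form of the glycolytic enzyme GAPDH, had 452 and 534 against 7.66 and 0.801 CPM (6.87 ± 1.18, adjusted p = 0.00823). GLUL, glutamine synthetase, had 715 and 751 against 72.3 and 60.8 CPM (3.46 ± 0.33, adjusted p = 0.00456), and its level was 2658 and 2491 CPM in adult elongated spermatids and 139.6 and 268 CPM in adult Sertoli cells. LDHC and GAPDHS differed in stage. LDHC was at 3569 and 3820.3 CPM in adult late spermatocytes and 169 and 200.2 CPM in elongated spermatids, whereas GAPDHS was at 60.3 and 52.8 CPM in late spermatocytes and 1711 and 1589 CPM in elongated spermatids.

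Some of these enzymes are retrocopies, intronless autosomal copies of X-linked genes that take over when the X chromosome is silenced in meiosis. Of 8 retrocopies tested 5 were higher and 1 lower (median 5.83), and of their 9 X-linked parents 1 was higher and 6 lower (median -1.22). PGK2, the retrocopy of phosphoglycerate kinase, had 369 and 468 CPM in adult and 9.18 and 0.0246 CPM in prepubertal animals (6.51 ± 2.09, adjusted p = 0.044), and its parent PGK1 had 65 and 36.2 against 126 and 109.9 CPM (-1.22 ± 0.37, adjusted p = 0.0359). RPL10L, a ribosomal protein copy, had 219 and 391 against 10.1 and 0.259 CPM (5.87 ± 1.62, adjusted p = 0.0279), and its parent RPL10 had 598 and 374 against 3054 and 2546 CPM (-2.53 ± 0.41, adjusted p = 0.0073). In each pair the copy was higher and the parent lower in both adults than in both prepubertal animals. Such separation, in either direction, held for 83.9% of all genes tested. UTP14C was the exception among the copies and fell with its parent UTP14A (-1.25 ± 0.35 and -1.76 ± 0.40), and CSTF2 was the parent that rose (1.05 ± 0.32, adjusted p = 0.0375). PDHA2, the copy of the pyruvate dehydrogenase subunit PDHA1, had 280.2 and 503 against 9.9 and 0.0123 CPM and did not pass (adjusted p = 0.0539). Leaving out the NB library of prepubertal animal 1 gave medians of 10.7 for the copies and -1.12 for the parents. The change of PGK2 was then 13.5, RPL10L 10.2 and PDHA2 14.3, and PDHA2 passed (adjusted p = 9.49e-07, edgeR). Reads of such near copies may be shared, so their levels are uncertain.

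The exchange within the adult germ line fell between early and late spermatocytes. PGK1 had 168 and 147 CPM in adult early spermatocytes, 10.8 and 8.4 CPM in late spermatocytes and 4.37 and 8.12 CPM in round spermatids. PGK2 had 15.7 and 67.4 CPM, 454 and 459 CPM and 754 and 651 CPM in the same classes. RPL10 had 853 and 856 CPM in early and 83.1 and 74.5 CPM in late spermatocytes, and RPL10L 27.5 and 60.2 CPM and 499 and 553 CPM. In both pairs each adult animal showed the parent falling and the copy rising between these 2 classes. The 123 late spermatocytes of prepubertal animal 1 had 19.3 CPM of PGK1 and 353 CPM of PGK2, but also 459 CPM of RPL10 and 619.8 CPM of the Sertoli hormone AMH, against 79.7 and 26.1 CPM of AMH in adult late spermatocytes.

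**Figure D3:**
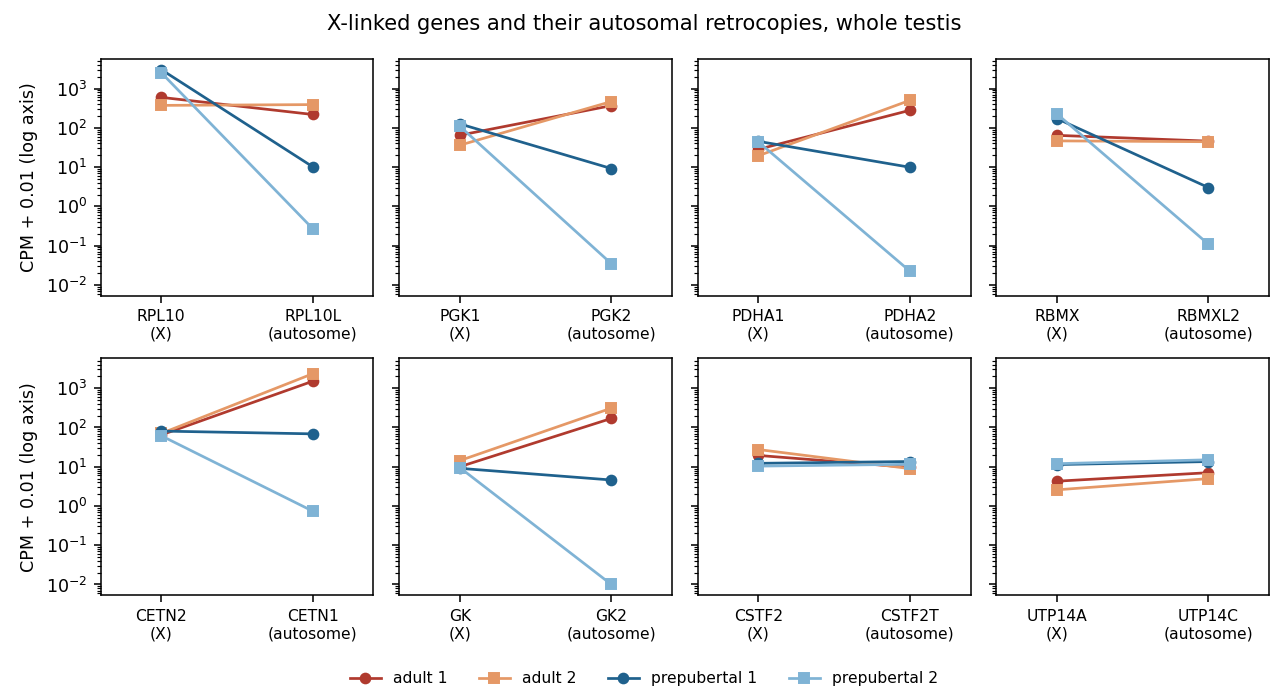
Whole-testis levels of 8 X-linked genes and their autosomal retrocopies (TMM-scaled CPM + 0.01, log axis), 1 line per animal joining the parent on the left to the copy on the right. The copies RPL10L, PGK2, PDHA2, RBMXL2, CETN1 and GK2 lie higher in both adults than in both prepubertal animals, with prepubertal animal 2 lowest, and CSTF2T and UTP14C do not.

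The X chromosome as a whole was lower in the adult testis. Of 583 X-linked genes tested, 88 were higher (15.1%) and 243 lower (41.7%), with a median change of -0.92. Of 14369 autosomal genes with a RefSeq position, 24.9% were higher and 26.2% lower, with a median of -0.19, and the share of higher genes on single autosomes ran from 23.4% to 27.5%. X-linked genes took 2.19% and 1.59% of located UMIs in adult and 3.56% and 3.40% in prepubertal animals. Adult animals were below prepubertal animals in this share, and it also differed between the libraries of an animal, at 3.13% in the NB and 1.09% in the B library of adult animal 1. By class the share was 2.83% and 2.61% in adult early spermatocytes, 0.41% and 0.389% in late spermatocytes, 0.956% and 1.10% in round spermatids and 1.30% and 1.43% in elongated spermatids. It was therefore lowest in late spermatocytes in both adults. Adult Sertoli cells had 4.41% and 3.93% and prepubertal Sertoli cells 3.59% and 3.33%. Spermatogonia had 2.64% and 2.50% in adult and 2.69% and 2.59% in prepubertal animals. Within Sertoli cells the share was thus higher in both adults, and in spermatogonia the groups overlapped.

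**Figure D4:**
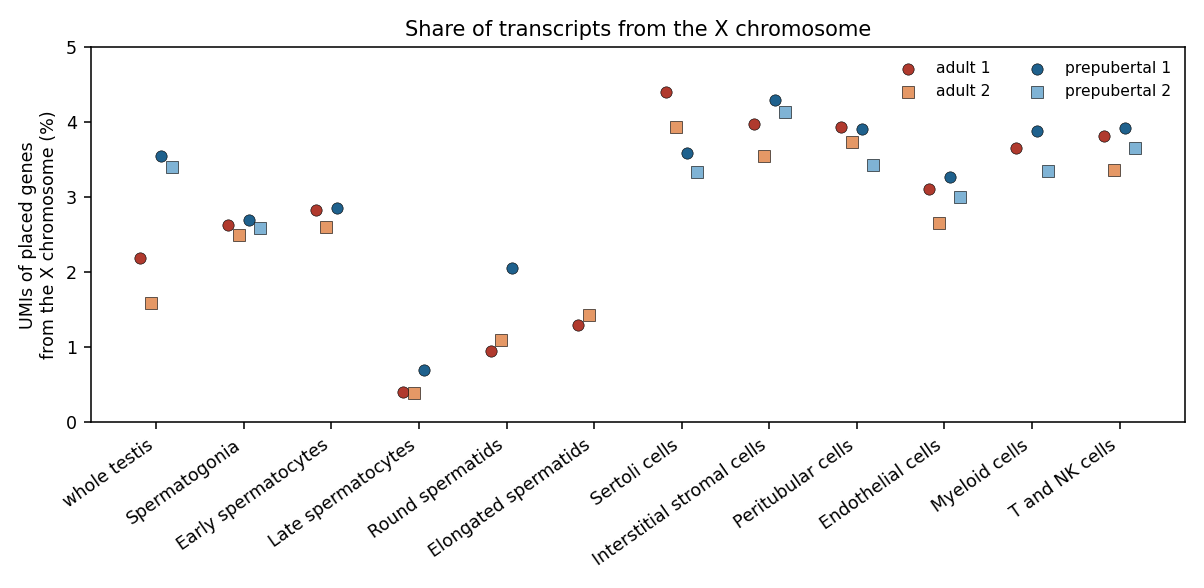
X-linked share of UMIs of genes with a known position (percent, vertical axis) in the whole testis and in each cell class with 20 cells or more, 1 point per animal, adult and prepubertal animals in separate colors. Late spermatocytes of the adults lie at 0.41% and 0.389%, below the other classes, and Sertoli cells lie between 3.33% and 4.41% in all animals.

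Many genes of Sertoli cells were lower over the whole testis. Of 11 Sertoli identity genes 7 were lower and none higher (median -1.76). Of 9 genes of immature Sertoli cells 7 were lower and none higher (median -2.45). Of 17 genes of mature Sertoli cells and the blood-testis barrier 6 were lower, none higher and 11 did not pass (median -0.92). Over all genes tested 22.7% were lower and 29% higher. AMH, the anti-Müllerian hormone that immature Sertoli cells secrete, had 792 and 243 CPM in adult and 4778 and 5333 CPM in prepubertal animals (-3.29 ± 0.65, adjusted p = 0.0114). KRT18, a keratin of immature Sertoli cells, had 8.15 and 4.22 against 159.6 and 133 CPM (-4.56 ± 0.44, adjusted p = 0.00456). INHBB, a subunit of inhibin B, had 20 and 8.09 against 142 and 195 CPM (-3.58 ± 0.53, adjusted p = 0.00609). The share of Sertoli cells was lower in the same animals. CST9L and FATE1, genes of the Sertoli lineage, had higher values in both adults and did not pass, at 1103 and 772 against 264 and 3.81 CPM (adjusted p = 0.178) and 854 and 433 against 256 and 29.9 CPM (adjusted p = 0.107). Both, and CLDN11 of the mature list, passed as higher without the NB library of prepubertal animal 1.

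Within Sertoli cells 16441 genes were tested, and 966 were higher in adults (5.88%) and 1136 lower (6.91%). Of the higher genes 361 (37.4%) had a level in adult late spermatocytes or spermatids over 10 times that in adult Sertoli cells, against 15.6% of all genes tested in the class. The summed level of the 11 elongated-spermatid markers was 757 and 6705 CPM in adult and 61.5 and 1.02 CPM in prepubertal Sertoli cells, and the part of germ-cell RNA in these calls was not tested. The 15 Sertoli markers together were at 15840.00 and 17186 CPM in adult and 12236 and 11347 CPM in prepubertal Sertoli cells. The class was named by these markers, so their sum is no separate check of the name. Adult and prepubertal Sertoli cells fell in different clusters. Of adult Sertoli cells 54.6%, 26.8% and 18.5% were in clusters 12, 9 and 13. Prepubertal cells spread over clusters 22, 23, 37, 38, 40, 41 and 42 with 9.01% to 17.7% each. In each of these clusters 73.7% to 98.2% of cells came from a single library. Cluster 12 came mostly from the NB library of adult animal 1, and cluster 9 from that of adult animal 2. No correction between libraries preceded clustering, so age and library cannot be told apart in this split. Clusters 22 and 38 scored higher for erythroid markers (0.99 and 0.559) than for Sertoli markers (0.87 and 0.41), with 9 and 8 raised Sertoli markers. The count changed with single animals: 142 were higher and 209 lower without prepubertal animal 2, 547 and 543 without prepubertal animal 1, 470 and 683 without adult animal 2 and 1550 and 980 without adult animal 1. Adult Sertoli cells came almost wholly from one season, with 3943 and 1486 from NB and 23 and 3 from B libraries, whereas prepubertal ones had 5134 and 4625 from NB and 4329 and 5688 from B libraries. Age and season are therefore mixed in this contrast, and in the other classes tested adult animal 2 had at most 1 cell from its B library. Without the NB library of prepubertal animal 1 there were 1959 and 1640, with NB libraries only 110 and 330, and at Leiden resolution of 1 there were 141 and 362. Of the 33 genes named here that passed within Sertoli cells, 15 still passed without prepubertal animal 2, 22 without adult animal 2, 24 without prepubertal animal 1, 29 without adult animal 1, 10 with NB libraries only and 9 at Leiden resolution of 1.

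A few junction and support genes were higher in adult Sertoli cells, and most of their list did not pass. CLDN11, the claudin that seals the blood-testis barrier, had 743 and 745 CPM in adult and 122 and 50.4 CPM in prepubertal Sertoli cells (3.11 ± 0.47, adjusted p = 0.0213), whereas over the whole testis it had 235 and 123 against 109 and 50.1 CPM and did not pass (1.18 ± 0.51, adjusted p = 0.0965, with -0.063 in B libraries only). TF, transferrin, which carries iron to germ cells, had 610.4 and 744 against 238 and 202 CPM (1.62 ± 0.26, adjusted p = 0.024). TIMP1, an inhibitor of metalloproteases, had 2516 and 2358 against 811 and 349 CPM (2.07 ± 0.48, adjusted p = 0.0472). Of 16 tested genes of mature Sertoli cells and the barrier 3 were higher (CLDN11 and TF among them), 12 did not pass and 1 was lower, OCLN, the junction protein occludin (-1.87 ± 0.42). HSD17B3, the enzyme that makes testosterone from androstenedione, had 489.9 and 436 CPM in adult and 181 and 106 CPM in prepubertal Sertoli cells (1.69 ± 0.32, adjusted p = 0.0328). ALDH1A2, an enzyme of retinoic acid synthesis, had 57 and 46.3 against 4.43 and 0.721 CPM (4.33 ± 0.83, adjusted p = 0.0336), with ALDH1A1 also higher (1.30 ± 0.26). The 5 genes with the largest rise, after those past the 10-fold germ-cell measure were left out, were THSD7A, PDE3B, CALY, FAM133A and TBX22, with changes of 4.48 to 5.96. PDE3B was also at 186 and 176 CPM in adult late spermatocytes, against 47.1 and 68 CPM in adult Sertoli cells without TMM scaling. TBX22, an X-linked T-box factor, had 282 and 284 against 22.9 and 2.45 CPM.

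Genes that fell within Sertoli cells included receptors and a Notch target. ESR2, estrogen receptor beta, had 19.4 and 8.44 CPM in adult and 116 and 144 CPM in prepubertal Sertoli cells (-3.16 ± 0.41, adjusted p = 0.0152). PGR, the progesterone receptor, had 0.681 and 1.16 against 16.8 and 14.6 CPM (-4.22 ± 0.47, adjusted p = 0.0121), and GHR, the growth hormone receptor, 12.2 and 10.2 against 71.4 and 50.4 CPM (-2.43 ± 0.28, adjusted p = 0.0129). Of 15 hormone receptors tested, these 3 and INSR were lower, and LHCGR, a germ-cell gene by level, was higher. FBN1, the microfibril protein fibrillin 1, had 3.59 and 2.04 against 77.2 and 123 CPM (-5.03 ± 0.40, adjusted p = 0.00844). Of 19 extracellular matrix genes tested in the class 5 were lower, FBN1, ELN, COL1A1, COL4A1 and COL4A2, 2 higher, COL1A2 and TIMP1, and 12 did not pass (median -0.65). In the same cells stromal markers summed to 676 and 579 CPM in adult and 866 and 825 CPM in prepubertal animals, and peritubular markers to 218 and 213 against 439 and 389 CPM. The part of such RNA in the matrix calls was not tested. HES1, a target of Notch signals, had 18 and 27.1 against 210.4 and 249.7 CPM (-3.37 ± 0.29, adjusted p = 0.00881). KRT18 and INHBB fell within the class as over the testis (-3.86 ± 0.71 and -2.04 ± 0.31), and the other 6 of the 8 immature Sertoli genes tested did not pass (list median -0.65). Of 10 Sertoli identity genes 2 were lower, the lineage factors GATA4 (-1.30 ± 0.24) and WT1 (-0.92 ± 0.21), and 8 did not pass. The median of that list was 0.01, with values up to 4.76. AMH had 2624 and 1745 CPM in adult and 5791 and 5693 CPM in prepubertal Sertoli cells, without overlap, as for 67.2% of genes tested in the class, and did not pass (-1.39 ± 0.43, adjusted p = 0.0818). FSHR, the receptor for FSH, had lower values in both adults and did not pass, at 386 and 313 against 477 and 638 CPM (-0.67 ± 0.27, adjusted p = 0.146). The 5 genes with the largest fall were KCNQ5, CPXM1, FYB2, LSAMP and DPYSL3, with changes of -7.09 to -6.67. KCNQ5, a potassium channel, had 0.681 and 0.873 CPM in adult and 79.2 and 120.2 CPM in prepubertal Sertoli cells.

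Among steroid and hormone genes over the whole testis more were lower than higher, with 7 of 16 steroidogenesis genes lower and 2 higher (median -1.06) and 7 of 16 hormone receptors lower and 1 higher (median -0.86). Of all genes tested 22.7% were lower and 29% higher. No cluster was named Leydig cells. Cluster 35, led by CYP17A1, the enzyme that turns progestins into androgens, scored 2.26 for stromal and 2.06 for Leydig markers and was counted as stromal, with 341 prepubertal and 13 adult cells. INSL3, a defining Leydig gene, was at or below 4.28 CPM in every class and animal, and the summed level of all Leydig markers was highest, in each animal, in stromal or Sertoli cells. SCARB1, the lipoprotein receptor that supplies cholesterol, had 6.89 and 4.35 CPM in adult and 33.6 and 55.2 CPM in prepubertal animals (-2.98 ± 0.41, adjusted p = 0.00569). NR5A1, the factor SF1 that drives steroid genes, had 1.9 and 1.2 against 8.31 and 8.71 CPM (-2.45 ± 0.43, adjusted p = 0.00865). LHCGR, the LH receptor, was higher, at 71.4 and 112 against 6.1 and 3.17 CPM (4.31 ± 0.48, adjusted p = 0.00456). Its class levels were 159 and 159 CPM in adult round spermatids and 134 and 170.3 CPM in late spermatocytes, against 21.4 and 44.8 CPM in adult and 53.4 and 37.2 CPM in prepubertal stromal cells. In stromal cells the adult and prepubertal animals overlapped, and the highest levels of LHCGR were in germ cells.

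Interstitial stromal cells had 13146 genes tested, 1491 higher in adults (11.3%) and 466 lower (3.54%), and the animals of the groups did not overlap for 60.2%. Of the higher genes 470 (31.5%) were germ-cell genes by the same 10-fold measure, against 5.07% of all genes tested in the class, and the 11 elongated-spermatid markers summed to 11117 and 18577 CPM in adult and 177 and 2.04 CPM in prepubertal stromal cells. The 15 Sertoli markers summed to 7067 and 4684 CPM in adult and 3534 and 3276 CPM in prepubertal stromal cells, and the part of either kind of RNA in the calls was not tested. Adult stromal cells were in cluster 2 (98.8%) and prepubertal ones in clusters 34 (53.0%) and 33 (38.6%). Without adult animal 2 there were 818 higher and 257 lower genes, without prepubertal animal 2 there were 844 and 272, and with NB libraries only none in either direction (edgeR). Of the 22 genes named here that passed within stromal cells, 19 to 21 still passed without any 1 animal. The lower count was 311 without adult animal 1 and 738 without the NB library of prepubertal animal 1. DLK1, an imprinted Notch-like ligand of immature mesenchyme, had 39.1 and 47.5 CPM in adult and 379 and 426 CPM in prepubertal stromal cells (-3.23 ± 0.27, adjusted p = 0.0027). IGF1, insulin-like growth factor 1, had 599.8 and 737 against 184 and 106 CPM (2.21 ± 0.33, adjusted p = 0.00718). TIMP3, a matrix-bound protease inhibitor, had 534 and 596 against 224 and 221 CPM (1.34 ± 0.24, adjusted p = 0.011). The growth factor and the inhibitor were higher and the ligand lower in both adults. PGR had 35.1 and 48.9 CPM in adult and 14.2 and 7.22 CPM in prepubertal stromal cells (1.95 ± 0.42, adjusted p = 0.0201), and ESR1, estrogen receptor alpha, 32.7 and 30.7 against 106 and 201 CPM (-2.27 ± 0.38, adjusted p = 0.00908). The chemokine CXCL12 (-2.12 ± 0.52) was lower, and CYP26B1, which degrades retinoic acid, was higher (1.95 ± 0.44). Of the 12 stromal markers 3 were lower, DLK1, TCF21 (-1.80 ± 0.29) and C7 (-1.54 ± 0.40), 1 was higher, IGF1, and 8 did not pass (median -0.07). The 5 genes with the largest fall were CNTN5, EFNA5, NR4A3, RGS16 and NRXN3, from -6.04 to -4.45. Those with the largest rise below the 10-fold measure, C20H16orf82, CCDC187, TPPP2, C2H3orf22 and DPYSL5, had 6.72 to 7.50, with at most 39 UMIs in a prepubertal animal. All 5 had their highest adult levels in elongated spermatids, TPPP2 at 3526 and 3327 CPM there and at 356 and 487 CPM in adult stromal cells, so the measure did not remove every gene of germ cells.

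Cells named peritubular, from markers of contractile cells, numbered 471 and 65 in adult and 228 and 104 in prepubertal animals. Their position in the tissue was not measured. Of 6900 genes 410 were higher (5.94%) and 308 lower (4.46%), and the groups did not overlap for 53.1%. Of the 20 extracellular matrix genes tested 6 were higher and none lower (median 1.03, against 0.00 for all genes of the class), whereas over the whole testis 10 of 22 matrix genes were lower and 1 higher (median -1.13). The 12 stromal markers summed to 9932 and 9659 CPM in adult and 6692 and 2367 CPM in prepubertal peritubular cells, 4 of 12 were higher (median 1.29), COL1A2 and COL3A1 among them, and the part of stromal cells or RNA in these calls was not tested. The 10 peritubular markers summed to 13375 and 12762 CPM in adult and 10602 and 8548 CPM in prepubertal peritubular cells. COL3A1, a fibrillar collagen, had 829 and 1107 CPM in adult and 406 and 92.9 CPM in prepubertal peritubular cells (1.86 ± 0.49, adjusted p = 0.0233). COL1A2 had 816 and 847 against 408 and 129.99 CPM (1.56 ± 0.43, adjusted p = 0.0316), and LAMB1, a laminin chain of the basement membrane, 563 and 465 against 238 and 49.5 CPM (1.73 ± 0.48, adjusted p = 0.0317). FBN1 had 309.5 and 437 against 138 and 167 CPM (1.26 ± 0.37, adjusted p = 0.0381). COL6A3 and ELN were the other higher members (2.12 ± 0.61 and 1.45 ± 0.43). PTCH1, the receptor and target of hedgehog signals, had 407 and 396 against 149 and 31 CPM (1.99 ± 0.47, adjusted p = 0.013). In the prepubertal animals 75.3% of these cells were in cluster 18, whose leading genes included COX4I2, RERGL, PDE3A and RGS5. In adults 90.5% were in cluster 3, which scored 4.39 for peritubular and 4.08 for stromal markers. Its leading genes included MYH11, SMOC2, MGP and DCN. The contrast is thus largely between different clusters. Both were led by ACTA2 and TAGLN, and whether they hold the same cell type was not tested. Of the 161 peritubular cells in the NB library of prepubertal animal 1, 82 (50.9%) lay in clusters made mostly of adult cells. Without adult animal 1 the counts fell to 151 higher and 76 lower, without prepubertal animal 1 they were 640 and 505, and without that NB library 572 and 561. Of the 21 genes named here that passed within peritubular cells, 12 still passed without adult animal 1. With DESeq2 in place of edgeR, 12 of these 21 genes still passed. Of 13 Sertoli markers tested in the class 4 were lower, AMH (-3.87 ± 0.44), FSHR (-3.99 ± 0.60), WT1 (-4.04 ± 0.78) and INHA (-1.95 ± 0.38). As many were higher, CST9L (3.25 ± 0.65), HOPX (2.84 ± 0.47), FATE1 (2.59 ± 0.60) and CLDN11 (1.84 ± 0.47). The 15 Sertoli markers summed to 2694 and 2123 CPM in adult and 3949.9 and 4352 CPM in prepubertal peritubular cells. The elongated-spermatid markers summed to 15551 and 15299 CPM in adult and 178 and 5.77 CPM in prepubertal peritubular cells, and 163 of the 410 higher genes (39.8%) were germ-cell genes, against 3.35% of all genes tested in the class. The 5 genes with the largest fall were NRGN, KCNIP4, CHRM3, MAP3K7CL and DOCK8. NRGN, neurogranin, had 0 UMIs in both adults and 47 and 14 UMIs in the prepubertal animals, and CHRM3, a muscarinic receptor, had 3.62 and 0 against 74.6 and 279 CPM (-5.51 ± 0.90, adjusted p = 0.00107).

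**Figure D5:**
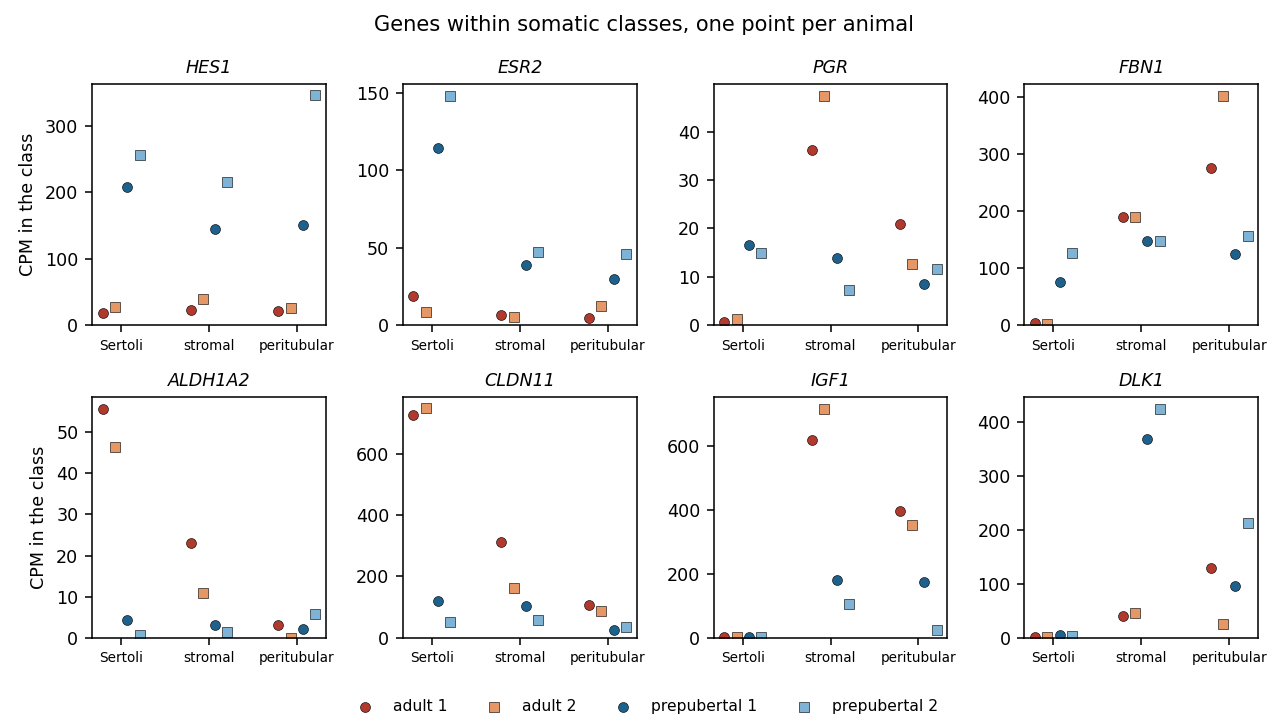
Levels of HES1, ESR2, PGR, FBN1, ALDH1A2, CLDN11, IGF1 and DLK1 (CPM without TMM scaling) in Sertoli, interstitial stromal and peritubular cells, 1 point per animal in adult and prepubertal groups. CLDN11 is at 727 and 747 CPM in adult and 121 and 51.8 CPM in prepubertal Sertoli cells, and DLK1 at 40.3 and 46.1 CPM in adult and 369.6 and 425 CPM in prepubertal stromal cells.

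With all animals in the fit, spermatogonia were the class with the fewest calls for its size. Of 13883 genes tested 216 were higher (1.56%) and 99 lower (0.713%). The groups did not overlap for 43.4% of genes tested, and 186 of the 216 (86.1%) were germ-cell genes of later stages, against 5.11% of all genes tested in the class, which leaves 30. Adult and prepubertal spermatogonia shared cluster 1. The counts were 89 higher and 42 lower without prepubertal animal 2, 119 and 54 without prepubertal animal 1, 439 and 227 without adult animal 1, and 292 and 223 without adult animal 2. With NB libraries only no gene passed (edgeR). None of 11 tested genes of undifferentiated spermatogonia passed (edgeR, median -0.09), and UTF1 had 432 and 478 CPM in adult and 455 and 531 CPM in prepubertal spermatogonia (-0.12 ± 0.17, adjusted p = 0.854). ZBTB16 had 59.9 and 74.1 against 57.9 and 58 CPM (0.20 ± 0.20, adjusted p = 0.762). TAF7L rose within the class, with 55.9 and 46.4 against 19.8 and 20.2 CPM (1.36 ± 0.24, adjusted p = 0.0088), but it was at 279 and 263 CPM in adult Sertoli cells. Of the 15 Sertoli markers tested in spermatogonia 4 rose, CST9L (4.21 ± 0.58), PRND (3.57 ± 0.73), FATE1 (3.56 ± 0.53) and HOPX (2.47 ± 0.26), and 2 fell, AMH (-2.58 ± 0.36) and GATA4 (-1.73 ± 0.40). SPINLW1 (3.75 ± 0.60) and DEFB119 (3.47 ± 0.53), leading genes of the adult Sertoli cluster 12, rose as well. The 15 Sertoli markers summed to 1791 and 1064 CPM in adult and 1695 and 1353 CPM in prepubertal spermatogonia, and the part of Sertoli RNA in these calls was not tested.

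Immediate early genes, which cells switch on quickly after a stimulus, the dissociation of tissue included, were the most uniform of the falling lists. Over the whole testis 14 of 15 were lower (median -3.15) and none higher. FOS had 207 and 206 CPM in adult and 2219 and 2649.5 CPM in prepubertal animals (-3.56 ± 0.36, adjusted p = 0.00456), and NR4A1, an orphan nuclear receptor, 49.9 and 43.7 against 356 and 478 CPM (-3.15 ± 0.34, adjusted p = 0.00456). The NB library of prepubertal animal 1 had the lowest prepubertal FOS, at 904 CPM without TMM scaling, against 2633 to 4005 CPM in the other 3. Within classes the list medians were -1.68 in spermatogonia, -1.55 in stromal, -1.45 in Sertoli, -0.66 in peritubular, -0.65 in T and NK and -0.06 in endothelial cells, and the differences between classes were not tested. In spermatogonia 8 of 13 tested were lower, against 0.713% of all genes tested in the class, with FOS at 42.6 and 52.3 CPM in adult and 493 and 352 CPM in prepubertal animals (-3.17 ± 0.21, adjusted p = 6.26e-05). In stromal cells 6 of 15 were lower (3.54% of all genes), in Sertoli cells 5 of 15 (6.91%) and in peritubular cells 3 of 14 (4.46%). In T and NK cells 2 of 11 were lower, FOS and NR4A1 (1.26% of all genes). In endothelial cells none of 14 was lower (edgeR) and DNAJB1, a heat-shock cochaperone, was higher. DUSP1 in Sertoli cells had 63.5 and 125 against 481 and 480.1 CPM (-2.36 ± 0.37, adjusted p = 0.023), and BTG2 in stromal cells 35.1 and 57.2 against 279.7 and 583 CPM (-3.25 ± 0.44, adjusted p = 0.00545). HES1 fell in Sertoli, stromal (-2.58 ± 0.37), peritubular (-3.39 ± 0.54) and T and NK cells (-4.05 ± 1.01). Sertoli markers were counted in these classes too, at 3950 and 4352 CPM in prepubertal and 2694 and 2123 CPM in adult peritubular cells. In T and NK cells they were at 8142 and 5582 against 8313 and 5278 CPM. In stromal cells they went the other way, at 3534 and 3276 CPM in prepubertal and 7067 and 4684 CPM in adult animals. In spermatogonia Sertoli markers were at 1695 and 1353 CPM in prepubertal and 1791 and 1064 CPM in adult animals. The Sertoli gene AMH was lower there too (-2.58 ± 0.36). The part of Sertoli RNA in the HES1 calls, and in the immediate early calls of classes other than Sertoli cells, was not tested. The leading genes of prepubertal Sertoli clusters included BTG2, ATF3, IER3 and RRAD in cluster 37, DUSP1, NR4A1 and HES1 in cluster 40, NR4A3 in cluster 41 and IER3 and RRAD in cluster 42. In each of these clusters 92.4% to 98.2% of cells came from a single library.

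Endothelial cells had 372 of 8484 genes higher (4.38%) and 59 lower (0.695%), with no overlap of the groups for 45.5%, and 223 of the higher genes (59.9%) were germ-cell genes, against 3.65% of all genes tested in the class. Without adult animal 2 there were 178 and 27, without prepubertal animal 2 there were 227 and 29, and without adult animal 1 there were 247 and 16. COL4A1, CXCR4 and PRND passed here, but none of the 3 did without adult animal 1, adult animal 2 or prepubertal animal 1 or with DESeq2 in place of edgeR, and 1 of the 3 did without prepubertal animal 2 or with predicted doublets kept. None of their 11 own markers passed (edgeR). COL4A1, a collagen of the vascular basement membrane, had 101 and 81 CPM in adult and 236 and 221 CPM in prepubertal endothelial cells (-1.27 ± 0.35, adjusted p = 0.0387). Stromal markers in endothelial cells summed to 1472 and 1309 CPM in adult and 2875 and 1611 CPM in prepubertal animals, peritubular markers to 308 and 151 against 546 and 294 CPM, and their part in this call was not tested. CXCR4, the receptor for CXCL12, had 20.7 and 0 against 71.4 and 69.4 CPM (-2.13 ± 0.57, adjusted p = 0.0364). The sum of elongated-spermatid markers was 9034 and 8872 CPM in adult and 87.3 and 0 CPM in prepubertal endothelial cells. T and NK cells had 130 of 2930 genes higher (4.44%) and 37 lower (1.26%), with no overlap of the groups for 51.4%, and without adult animal 1 none (edgeR). Of the higher genes in T and NK cells 35 (26.9%) were germ-cell genes by the 10-fold measure, against 1.47% of all genes tested in the class. The 11 elongated-spermatid markers summed to 12240 and 14201 CPM in adult and 182 and 0 CPM in prepubertal T and NK cells. The 15 Sertoli markers summed to 8313 and 5278 CPM in adult and 8142 and 5582 CPM in prepubertal T and NK cells, above the class's own 12 markers in 3 of the 4 animals. The part of such RNA in the calls was not tested. Of their largest changes TPPP2 and TUBA3E, both testis genes, had 0 UMIs in prepubertal animals. PCDH11X had 0 UMIs in adult and 495 and 560.00 CPM in prepubertal T and NK cells, and it was at 543 and 979.5 CPM in prepubertal Sertoli cells.

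Other pathways over the whole testis are given by their lists. Of 11 imprinted growth genes 7 were lower and 2 higher (median -1.56). IGF2, the fetal insulin-like growth factor, had 66.8 and 90.7 CPM in adult and 571 and 313 CPM in prepubertal animals (-2.49 ± 0.42, adjusted p = 0.00805), while within stromal cells, its highest class, it had 2115 and 3113 CPM in adult and 4919 and 2813 CPM in prepubertal animals, which overlapped. PLAGL1, a growth regulator, had 22.6 and 11 against 140.5 and 184 CPM (-3.27 ± 0.45, adjusted p = 0.00567). CDKN1C, an inhibitor of the cell cycle, was higher, at 10.2 and 5.93 against 1.74 and 0.727 CPM (2.71 ± 0.60, adjusted p = 0.015). Of 20 retinoic acid genes 4 were higher and 6 lower (median -0.62), against 29% and 22.7% of all genes tested, with the receptor RXRG at 49.2 and 97.4 against 4.01 and 1.76 CPM (4.67 ± 0.59, adjusted p = 0.00507) and at 176 and 196 CPM in adult round spermatids. CYP26C1, an enzyme that degrades retinoic acid, had 0 UMIs in both adults and 18 and 29 UMIs in the prepubertal animals. Of 29 niche ligands and receptors 2 were higher and 11 lower (median -0.89), among them KITLG, the ligand of KIT, at 14.2 and 15.1 against 40.8 and 42.5 CPM (-1.51 ± 0.26, adjusted p = 0.00829). FGF2, a growth factor for spermatogonia, was higher (2.95 ± 0.44) and was at 31.9 and 51.6 CPM in adult late spermatocytes. Of 17 cell cycle genes 9 were higher and 1 lower (median 0.84). CCNB2, a cyclin of division, had 262 and 405 against 23.4 and 13.9 CPM (4.16 ± 0.45, adjusted p = 0.00456), and the lower member was MCM3, a replication helicase subunit (-0.98 ± 0.27, adjusted p = 0.0281).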

How the data were processed

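The authors prepared single-cell suspensions from testes and deposited raw UMI counts per gene and barcode for each library, made per the submitters' processing notes with Cell Ranger 9.0.0 against Mmul_10. Members, gene lists and tests were chosen with earlier results of these data known. Barcodes below 300 genes, above 30000 UMIs or above 3% mitochondrial UMIs were dropped. Cells were clustered in scanpy 1.11.5 (Leiden resolution of 2) with predicted doublets included, and clusters were named by markers. Scrublet doublets were then left out of class shares and class sums but not of whole-testis sums. Counts were summed per animal, and per animal and class (T and NK cells as 1 class), and tested with edgeR 4.0.16 in R 4.3.3 (quasi-likelihood, TMM, filterByExpr, Benjamini-Hochberg adjusted p under 0.05). DESeq2 1.42.0 and other normalizations, filters, seasons and samples were alternatives. Cell shares were compared by an exact permutation test. Animal sums held 40387121 to 80292341 UMIs, and intervals of sampling error were not used because the animals set the error. Named genes were list or marker members, the 10 largest changes each way over the whole testis and the 5 each way per class, among genes that passed, whose groups did not overlap and whose mean reached 50 CPM in the higher group. In classes, rising genes with over 10 times the level in adult late spermatocytes or spermatids were left out. Promoters and positions came from RefSeq (Mmul_10). Of 26530 features, 9920 had no symbol and 565 of these were named from a table. Some list members counted within Sertoli cells are not reported here by name.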

Additional observations from a re-analysis of the deposited data

Results flagged for a closer look

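A few list genes passed the test in opposite directions in different cell classes, with the adult and prepubertal animals apart in each. Fibrillin 1 (FBN1) changed by a log2 of 1.26 in peritubular and -5.03 in Sertoli cells. Elastin (ELN) changed by 1.45 in peritubular and -4.31 in Sertoli cells. The progesterone receptor gene PGR changed by 1.95 in stromal and -4.22 in Sertoli cells. PRND, which encodes the prion-like protein doppel, a Sertoli marker here that endothelial cells also express, changed by -1.40 in endothelial cells, 4.01 in stromal cells and 3.57 in spermatogonia. The endothelial call of PRND was lost without adult animal 1, adult animal 2 or prepubertal animal 1, with DESeq2, with NB libraries only and with predicted doublets kept. Sertoli markers summed to 7067 and 4684 CPM in adult and 3534 and 3276 CPM in prepubertal stromal cells. In spermatogonia the sums were 1791 and 1064 against 1695 and 1353 CPM. In endothelial cells they were 3695 and 2121 against 3169 and 2720 CPM, where 4 of 15 Sertoli markers were higher and 3 lower. The part of such RNA in the PRND calls was not tested. The differences between classes were not tested.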

How the results depend on the processing

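For 188 named genes, counted per class, 2540 values under other settings were compared with the main fit. Of these, 2131 kept their direction and side of the threshold, 358 no longer passed and 50 passed in addition. The 1 that reversed was CLDN11 over the whole testis with B libraries only (-0.0632). The 2131 include 94 values at the setting of at least 50 cells per animal, which repeat the main fit and could not change. With NB libraries only, 0 genes were higher and 0 lower over the whole testis and 145 and 336 within 5 classes (3175 and 1797 in the same classes with all libraries). At Leiden resolution of 1, 1300 and 731 genes passed within 5 classes, namely 141 and 362 in Sertoli cells, 360 and 55 in endothelial cells, 261 and 103 in spermatogonia (1554 and 1294 in these 3 at resolution 2), 505 and 194 in a cluster called myeloid, which also scored high for T and NK markers (3.47, against 4.97 for myeloid ones), and 33 and 17 in early spermatocytes. Myeloid cells and early spermatocytes were not tested at resolution 2. With DESeq2, 2166 and 1841 genes passed in Sertoli cells (edgeR 966 and 1136), 198 and 107 in peritubular cells (410 and 308), 150 and 64 in spermatogonia (216 and 99), 85 and 17 in T and NK cells (130 and 37) and 276 and 10 in endothelial cells (372 and 59). Without a filter on low counts, 627 and 993 passed in Sertoli, 2086 and 1098 in stromal, 620 and 379 in peritubular, 629 and 158 in endothelial, 392 and 123 in T and NK cells and 510 and 311 in spermatogonia. With predicted doublets kept, 626 and 466 passed in peritubular cells, 495 and 102 in endothelial cells and 222 and 188 in spermatogonia. Leaving out 1 animal gave 2139 to 6110 higher and 901 to 4366 lower genes over the whole testis, and 1920 to 3727 and 901 to 1610 within classes. Differences in share (adult minus prepubertal, percentage points) reversed with B libraries only for peritubular cells (-0.126), spermatogonia (-1.89), T and NK cells (-0.103) and unnamed cells (28.1). Without the NB library of prepubertal animal 1 the difference for myeloid cells was 0.032, and at resolution 1 it was 0.381 for myeloid and -10.5 for peritubular cells, which then held the 3335 prepubertal cells that scored highest for Sertoli markers. Without 1 animal it ran from -0.284 to 1.77 for peritubular and from -0.230 to 0.197 for myeloid cells. With B libraries only, adult animal 2 is the library of 117 cells. It had 0 peritubular cells, spermatogonia and T and NK cells and 68.4% unnamed cells. In B libraries adult animal 1 had 1.82% peritubular cells, against 0.986% and 1.09% in prepubertal animals. It had 0.311% T and NK cells against 0.265% and 0.252%, but 1.73% spermatogonia against 3.40% and 2.12%. Its unnamed cells were 12.1%, against 10.2% and 14.1%. The cause of the changes between settings was not tested. No paired analysis was possible because the matrices carry no replicate numbers that match across ages. Not run were B libraries only within classes, NB libraries only for peritubular cells, resolution 1 for stromal, peritubular and T and NK cells, and the alternatives without the NB library of prepubertal animal 1 and with at least 50 cells for T and NK cells. With 2 animals a side, fits without 1 animal assume that a lone animal varies like the other group, and the classes with fewest cells had the fewest genes that could be tested.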
